A study of Homo sapiens with 29 samples.

Results

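WM239A, a human metastatic melanoma cell line, was engineered to overexpress BRAF-V600E and was either grown without drug or kept for 28 d in 500 nM LGX818 (encorafenib, a BRAF kinase inhibitor). The comparison used 5 of the 29 RNA-seq libraries of the series: the 2 libraries of cells under drug for 28 d without a break, and the 3 libraries of BRAF-V600E cells that had no drug. Members were chosen by their labels alone, all 5 libraries come from the BRAF-V600E overexpressing line, and the labels name no vehicle for the untreated cells. Untreated cells were collected once, so 28 more days in culture and 28 d of drug cannot be told apart in the main comparison. For that reason the same 28 d libraries were also set against 3 libraries taken after the first 7 d of drug, and against 3 libraries of an intermittent arm. The intermittent cells had the same 500 nM LGX818 in weeks 1 and 3 and DMSO, the solvent, in weeks 2 and 4, and were collected on day 28 after the last 7 d off drug. Cells of each time point were trypsinised and frozen, and RNA of all of them was purified together at the end of the course. Whether the libraries of one group are separate cultures is not stated, so p-values measure the spread between libraries of the same group, which may be technical. That spread was estimated in 1 fit over all 10 groups of the series, not from the compared groups alone.

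As background, the V600E change keeps the BRAF kinase active and drives the MEK and ERK kinases without a growth factor. ERK switches on immediate early genes, cyclin D1 and its own inhibitors, the dual specificity phosphatases and the Sprouty and SPRED adaptors. In melanoma cells held under BRAF inhibition, loss of the melanocyte factor MITF and gain of receptor tyrosine kinases, neural crest genes and matrix genes are known features of drug-tolerant and resistant states.

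Sequencing gave 24736045 to 30713170 counts per untreated library and 30975155 and 29452109 at 28 d. Levels are given in CPM, read counts scaled to a common library total with TMM factors, and they compare one gene between libraries, not one gene with another. Of 60675 genes in the table, 20494 had enough counts to be tested with edgeR's quasi-likelihood test, and a gene was called changed at a Benjamini-Hochberg adjusted p under 0.05. At 28 d, 6010 genes (29.3% of those tested) were higher and 5319 genes (26.0%) were lower than untreated, with a median log2 fold change of 0.03 over all tested genes. Changes of at least 2-fold were seen in 3555 genes upward (17.3%) and 2223 genes downward (10.8%). On the leading principal component, which held 38.57% of the variance, the untreated libraries lay between -112.04 and -109.68 and the 28 d libraries at 61.89 and 62.68. Mitochondrially encoded genes took 14.943 to 16.364% of counts untreated and 13.427 and 14.696% at 28 d. More genes had at least 1 count at 28 d, 26469 and 26098 against 23943 to 24126. With 55.3% of all tested genes past the threshold in one direction or the other, a list in which a similar share was called does not stand apart from the rest of the transcriptome.

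**Figure D1:**
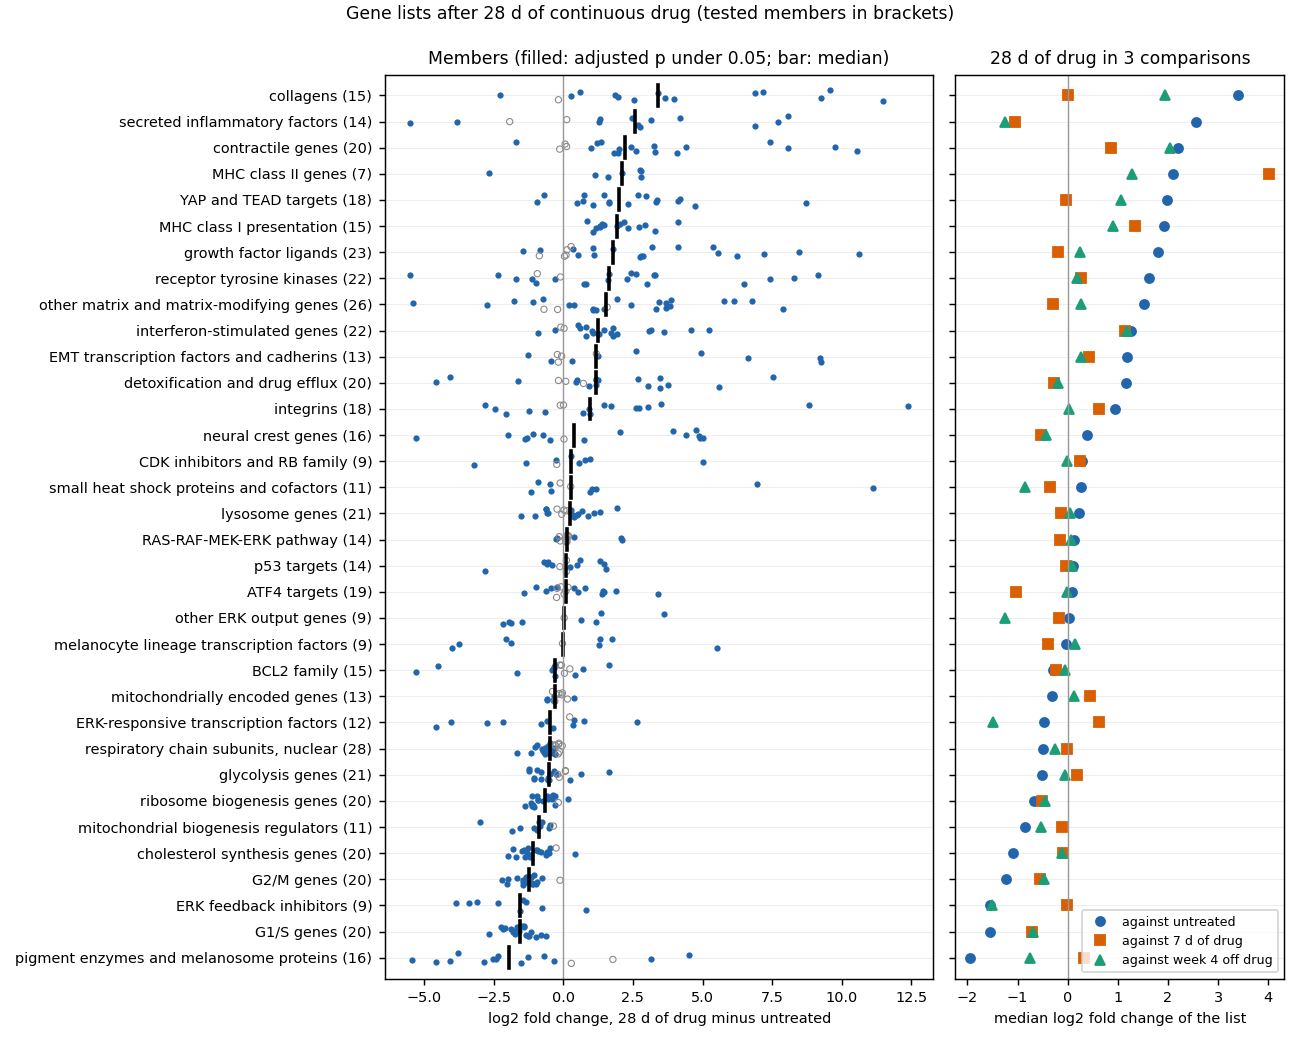
Each row is a gene list, with the number of tested members in brackets. The left panel plots each member's log2 fold change between 28 d of drug and untreated, filled where the adjusted p is under 0.05, with the list's median as a bar; the right panel plots the list's median in the 3 comparisons of the 28 d libraries. Collagens have the highest median against untreated, 3.39, and pigment genes the lowest, -1.94.

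The targeted kinase was checked first. BRAF (ENSG00000157764, GRCh38 chr7:140719327-140924928, minus strand) stood at 903, 889 and 893 CPM in the untreated libraries and at 1045 and 990.0 CPM at 28 d, and at 40.1 CPM in the vector control cells. The groups did not overlap, as was so for 71.6% of tested genes, but the difference did not pass the threshold (log2 fold change 0.19 ± 0.09 (SE), adjusted p = 0.0652). It passed with size factors of the RLE kind, in DESeq2 and in a fit of the 5 libraries alone, with adjusted p-values of 0.0401, 0.0358 and 0.00517. Cells of the intermittent arm on day 28 held 3404 CPM of BRAF, so the 28 d libraries were lower than those (log2 fold change -1.74 ± 0.09 (SE), adjusted p = 2.48e-16). Of 14 tested genes of the RAS, RAF, MEK and ERK cascade, BRAF among them, 3 rose and 2 fell. That is 35.7% called, against 55.3% of all tested genes. Fewer fell without 28 d replicate 2, and the counts differed in DESeq2, as given further below. KSR1, a scaffold that holds RAF next to MEK, went from 4.24, 3.89 and 4.81 CPM to 18.3 and 18.3 CPM (log2 fold change 2.09 ± 0.14 (SE), adjusted p = 1.03e-13). MAP3K8, a kinase that can act on MEK beside RAF, was at 0.12, 0.259 and 0.114 CPM and then 0.524 and 0.921 CPM (log2 fold change 2.07 ± 0.60 (SE), adjusted p = 0.0043).

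Feedback inhibitors of ERK stayed low after 28 d. Of the 9 genes in this list, 8 fell and 1 rose, with a median log2 fold change of -1.54. SPRY4, an adaptor that blocks receptor signalling to RAS, was at 1358, 1289 and 1396 CPM untreated and at 90.5 and 95.4 CPM at 28 d, a 14.5-fold fall (log2 fold change -3.86 ± 0.11 (SE), adjusted p = 1.1e-22). DUSP4, a nuclear phosphatase of ERK, went from 1448, 1549 and 1502 CPM to 149 and 139 CPM (log2 fold change -3.38 ± 0.09 (SE), adjusted p = 9.97e-24). The groups lie far apart for both genes. DUSP5 fell by 3.10 on the log2 scale, SPRY1 by 2.35, DUSP6 by 1.54, SPRY2 by 1.46, SPRED2 by 1.33 and SPRED1 by 0.78. SPRED3 went the other way, from 5.07 to 8.92 CPM on average (log2 fold change 0.82 ± 0.15 (SE), adjusted p = 2.85e-05). DUSP6 and SPRY1 had come back in part since the first week. DUSP6, the cytoplasmic ERK phosphatase, was at 60.9, 64.9 and 66.1 CPM after 7 d and at 142 and 146 CPM at 28 d (log2 fold change 1.18 ± 0.07 (SE), adjusted p = 1.68e-14). SPRY1 rose between 7 and 28 d from a mean of 3.61 to 15.2 CPM (log2 fold change 2.07, adjusted p = 8.69e-14), while SPRY4 and DUSP4 fell a little further (log2 fold changes -0.25 and -0.27, adjusted p = 0.0442 and 0.00697). Off drug on day 28, SPRY4 had a mean of 945 CPM and DUSP6 of 613 CPM.

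Transcription factors that ERK controls moved both ways. Of 12 tested, 7 fell and 4 rose, and 2 rose without 28 d replicate 2. ETV4, an ETS factor of the PEA3 group, went from 221, 229.9 and 242 CPM to 9.82 and 9.34 CPM (log2 fold change -4.59 ± 0.12 (SE), adjusted p = 4.02e-24), and its relative ETV5 fell by 2.73 on the log2 scale. EGR3, an immediate early zinc finger gene, fell from 97.3, 88.3 and 101 CPM to 4.74 and 6.94 CPM (log2 fold change -4.03 ± 0.16 (SE), adjusted p = 9.94e-20), and MAFF fell by 2.16. FOS, the AP-1 subunit that serves as the textbook immediate early gene, did the reverse. FOS was at 45.2, 50.3 and 52.0 CPM untreated and at 305 and 313 CPM at 28 d, a 6.28-fold rise (log2 fold change 2.65 ± 0.13 (SE), adjusted p = 2.02e-17). Its group means were 2.52 CPM at 20 h, 5.38 at 7 d, 35.3 at 14 d and 182 at 21 d, so the level dropped first and then passed the starting level between 14 and 21 d. EGR1, another immediate early zinc finger factor, followed a like course to 486 and 584 CPM against 429, 391 and 438 CPM untreated (log2 fold change 0.35 ± 0.12 (SE), adjusted p = 0.0141), from means of 9.22 CPM at 7 d and 48.4 CPM at 14 d. FOSL1, the AP-1 gene linked to ERK in melanoma, was already at 331 CPM at 7 d and had come down to 155 CPM at 28 d, still above the untreated mean of 92.3 CPM (adjusted p = 2.54e-08). In the list of other ERK output genes, 4 of 9 rose and 4 fell. CCND1, cyclin D1, was at 1504, 1562 and 1594 CPM and then at 418 and 387 CPM (log2 fold change -1.95 ± 0.07 (SE), adjusted p = 2.29e-20), where 7 d of drug had left 1118 CPM. LIF, a cytokine gene, fell by 2.18 on the log2 scale, and the ephrin receptor gene EPHA4 rose from 3.72, 3.34 and 3.67 CPM to 42.3 and 44.4 CPM (log2 fold change 3.60 ± 0.13 (SE), adjusted p = 2.22e-20).

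**Figure D2:**
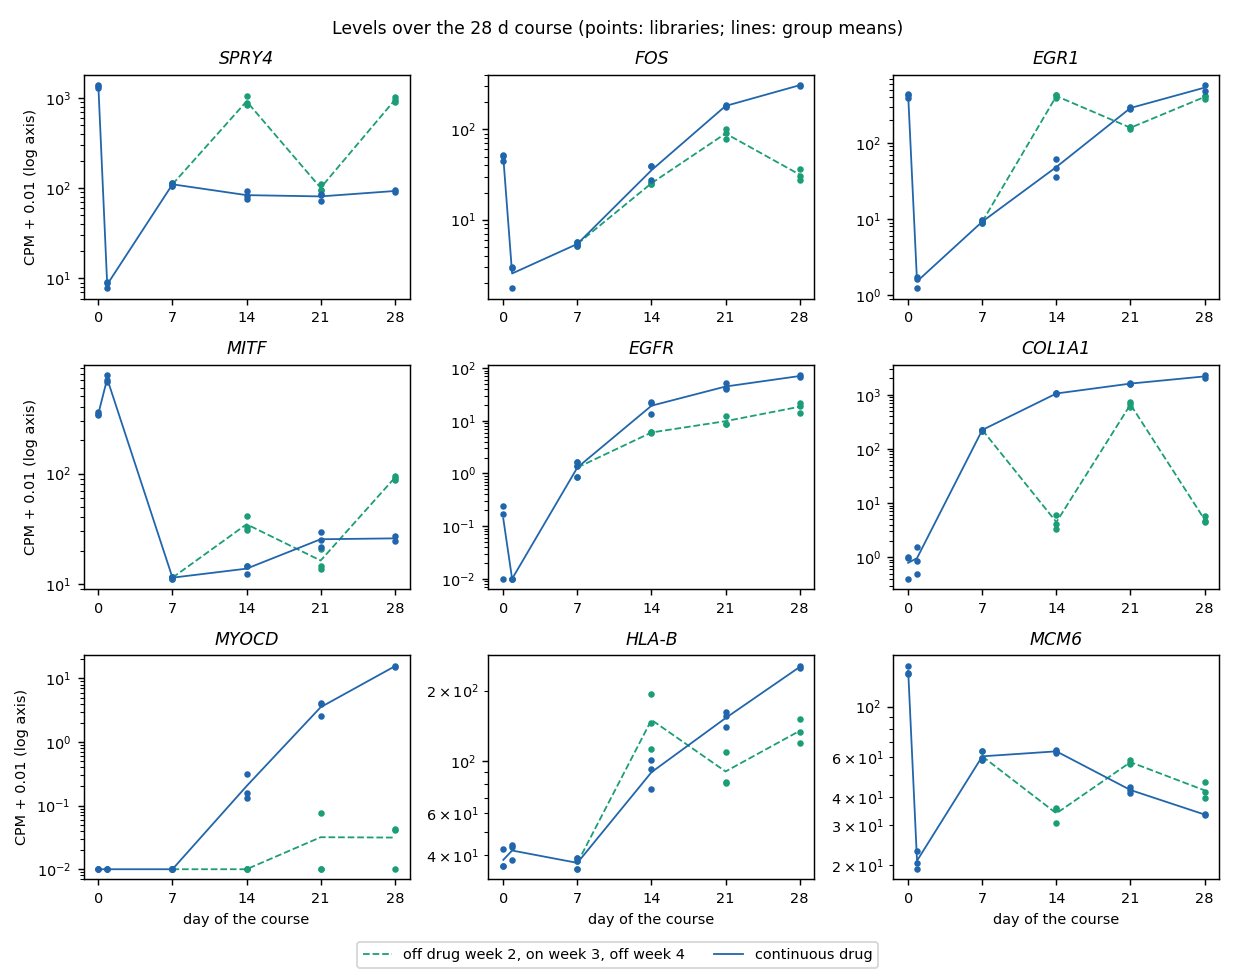
CPM + 0.01 on a log axis against the day of the course for 9 genes, with points for libraries and lines through group means, solid for continuous and dashed for intermittent drug; day 0 is untreated and the first drug point is 20 h. Under continuous drug SPRY4 stays near 93.0 CPM while FOS and EGR1 climb from 5.38 and 9.22 CPM at 7 d to 309 and 535 CPM at 28 d, and MYOCD is at 0 until 7 d and reaches 15.5 CPM.

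Receptor tyrosine kinases were mostly higher: 14 of 22 tested rose and 6 fell, with a median log2 fold change of 1.62. EGFR (ENSG00000146648, GRCh38 chr7:55019021-55211628), the epidermal growth factor receptor, was at 0.16, 0 and 0.227 CPM untreated and at 73.7 and 68.1 CPM at 28 d (log2 fold change 9.13 ± 0.35 (SE), adjusted p = 5.74e-19). Its mean climbed from 1.29 CPM at 7 d through 19.4 at 14 d and 44.8 at 21 d, and was 18.5 CPM off drug on day 28. PDGFRB, a platelet-derived growth factor receptor, had 0.32, 0.292 and 0.265 CPM and then 52.97 and 48.6 CPM (log2 fold change 7.42 ± 0.19 (SE), adjusted p = 4.53e-24), with a mean of 3.43 CPM at 7 d. Both receptors thus made most of their rise after the first week, and no untreated library came near the 28 d level. ROR2, a receptor for WNT5A, had 0 counts untreated and 86 at 28 d, at least 38.8-fold higher on a floor of 3 counts over the group. The neurotrophin receptors NTRK2 and NTRK3 rose by 6.48 and 3.29 and the collagen receptor DDR2 by 2.42 on the log2 scale. AXL, a receptor often high in MITF-low melanoma, rose from 3.61 to 29.2 CPM against untreated but was lower than after 7 d, when it had 57.9 CPM (log2 fold change -0.99, adjusted p = 4.01e-09). KDR, a VEGF receptor, took the largest fall, from 10.3, 8.43 and 10.03 CPM to 0.216 and 0.197 CPM (log2 fold change -5.50 ± 0.35 (SE), adjusted p = 2.22e-14). ERBB3, the neuregulin receptor of the melanocyte lineage, fell from 401, 375 and 377 CPM to 80.1 and 71.8 CPM (log2 fold change -2.34 ± 0.14 (SE), adjusted p = 1.75e-15), and IGF1R, TYRO3 and MET fell by 1.70, 0.98 and 1.12. KIT, the receptor for stem cell factor, had 0 counts untreated and 6 at 28 d, too few to test.

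Growth factor ligands rose in 16 of 23 cases and fell in 2 (median 1.79). BDNF, the ligand of NTRK2, went from 3.12, 2.63 and 3.18 CPM to 122 and 121 CPM (log2 fold change 5.36 ± 0.11 (SE), adjusted p = 4.84e-27). VEGFC, a ligand of lymphatic and vascular VEGF receptors, went from 0.04, 0.130 and 0.151 CPM to 38.7 and 42.4 CPM (log2 fold change 8.48 ± 0.29 (SE), adjusted p = 6.03e-21), and NRG1, the ligand of ERBB3, from 0.4, 0.454 and 0.454 CPM to 33.0 and 33.9 CPM (log2 fold change 6.24 ± 0.18 (SE), adjusted p = 4.55e-23). So the ligand NRG1 rose where its receptor gene ERBB3 fell. TGFA, a ligand of EGFR, fell from 302, 288 and 300.4 CPM to 112 and 102 CPM (log2 fold change -1.47 ± 0.08 (SE), adjusted p = 6.36e-16). PDGFB differed by time: its mean was 0.0501 CPM untreated, 7.39 CPM at 7 d and 0.364 CPM at 28 d.

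Most pigment genes fell. Of 16 tested pigment enzymes and melanosome proteins 12 fell and 2 rose, with a median log2 fold change of -1.94. PMEL, which forms the fibrils of the melanosome, was at 619, 683 and 638 CPM untreated and 13.6 and 16.4 CPM at 28 d, a 43.2-fold fall (log2 fold change -5.43 ± 0.18 (SE), adjusted p = 2.96e-21). MLANA, a melanosome protein used to diagnose melanoma, went from 367, 404 and 369.5 CPM to 17 and 15.1 CPM (log2 fold change -4.57 ± 0.21 (SE), adjusted p = 8.37e-18). SLC24A5, a melanosomal ion exchanger, went from 576, 542 and 583 CPM to 34.1 and 33.7 CPM (log2 fold change -4.06 ± 0.16 (SE), adjusted p = 2.35e-19). TYR, the rate-limiting enzyme of melanin synthesis, held more of its level, 63.5 and 63.8 CPM against 336, 353 and 342 CPM (log2 fold change -2.43 ± 0.12 (SE), adjusted p = 8.32e-17). TRPM1, a melanocyte ion channel gene, went from 7.04, 8.01 and 7.87 CPM to 0.554 and 0.559 CPM (log2 fold change -3.77 ± 0.21 (SE), adjusted p = 4.43e-16). TYRP1 and DCT, the other enzymes of the pathway, were not among those that fell. TYRP1 rose from 0.16, 0.195 and 0.151 CPM to 4.04 and 3.98 CPM (log2 fold change 4.52 ± 0.37 (SE), adjusted p = 7.59e-12). DCT had 60.0, 55.0 and 56.4 CPM untreated and 70.3 and 69.0 CPM at 28 d (adjusted p = 0.121), with means of 1863 CPM at 20 h, 2.58 at 7 d, 2.92 at 14 d and 46.4 at 21 d.

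Among lineage transcription factors 4 of 9 fell and 4 rose. MITF (ENSG00000187098, GRCh38 chr3:69739435-69968337), the master factor of melanocytes, was at 361, 342 and 344 CPM and then 27.3 and 24.4 CPM (log2 fold change -3.75 ± 0.15 (SE), adjusted p = 2.55e-19). That was above the 7 d mean of 11.4 CPM (log2 fold change 1.18, adjusted p = 3.27e-08) and below the 91.5 CPM of cells off drug on day 28. SOX10, which sits above MITF in the lineage, fell from 468, 469.7 and 495 CPM to 136 and 122.9 CPM (log2 fold change -1.88 ± 0.11 (SE), adjusted p = 4.84e-15), although it still had a mean of 417 CPM at 7 d. IRF4 fell by 4.01 and LEF1 by 2.07 on the log2 scale. TFEC, a close relative of MITF, rose from 0.520, 0.324 and 0.53 CPM to 22.2 and 19.7 CPM (log2 fold change 5.53 ± 0.24 (SE), adjusted p = 1.08e-18), and TFAP2A, an AP-2 factor of neural crest and melanocytes, rose by 1.75. PAX3 did not pass the test (38.9 and 38.1 CPM on average, adjusted p = 0.744).

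MITF binds E-box sequences of the M-box kind. The promoters of TYR and TRPM1, 2 pigment genes that fell, are shown because they hold the core of that motif in the 300 bases around the start. They are taken from RefSeq on build GRCh38.p14, TYR at chr11:89177625-89177924 on the plus strand and TRPM1 at chr15:31161111-31161410 on the minus strand, and capitals mark CATGTG on either strand.
TYR: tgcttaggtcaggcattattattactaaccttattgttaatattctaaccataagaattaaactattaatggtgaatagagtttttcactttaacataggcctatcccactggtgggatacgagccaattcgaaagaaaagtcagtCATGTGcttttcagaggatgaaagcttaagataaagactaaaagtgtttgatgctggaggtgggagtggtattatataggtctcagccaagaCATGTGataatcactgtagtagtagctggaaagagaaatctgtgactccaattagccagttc
TRPM1: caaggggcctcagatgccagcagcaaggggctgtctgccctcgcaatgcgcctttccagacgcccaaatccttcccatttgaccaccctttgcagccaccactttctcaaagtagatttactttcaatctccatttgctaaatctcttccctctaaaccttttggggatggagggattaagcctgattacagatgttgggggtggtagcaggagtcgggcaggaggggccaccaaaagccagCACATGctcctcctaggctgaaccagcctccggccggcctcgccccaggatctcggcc
TYR has the motif 104 and 12 bases before its start and TRPM1 has it 8 bases before, in reverse. A promoter was matched for 13 pigment genes, and 8 of them hold CATGTG (61.5%), against 11.2% of all 27195 promoters. TYRP1 and GPR143, which rose, are among the 8, as is OCA2. The number of pigment genes that rose was 1 rather than 2 without untreated replicate 2 or replicate 3. GPR143 had 1 count untreated and 9 at 28 d (adjusted p = 0.0242), and OCA2 had 2 and 6 (adjusted p = 0.183). A match is a description of letters and not a measured site.

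Neural crest genes moved both ways, 8 of 16 up and 7 down (median 0.38). L1CAM, an adhesion molecule of neural cells, went from 32.9, 35.6 and 37.1 CPM to 1161 and 1095 CPM (log2 fold change 5.00 ± 0.09 (SE), adjusted p = 2.71e-28). NGFR, a neurotrophin receptor and a marker of dedifferentiated melanoma, went from 7.44, 8.01 and 7.38 CPM to 211 and 199 CPM (log2 fold change 4.75 ± 0.09 (SE), adjusted p = 1.47e-27), below its mean of 360.3 CPM at 7 d (adjusted p = 6.49e-10). GFRA2 rose by 4.86 on the log2 scale. RXRG, a retinoid receptor that marks the neural crest state in melanoma, fell from 52.2, 52.8 and 47.3 CPM to 1.32 and 1.22 CPM (log2 fold change -5.32 ± 0.18 (SE), adjusted p = 2.44e-21), so not all markers of that state moved together. SOX9, SOX5 and S100B also fell. In the list of EMT factors and cadherins 7 of 13 rose and 2 fell. CDH6 went from 0.12, 0.0648 and 0.0379 CPM to 46.7 and 48.5 CPM (log2 fold change 9.27 ± 0.28 (SE), adjusted p = 1.75e-22). CDH11, a cadherin of mesenchymal cells, went from 0.08, 0.0648 and 0.0379 CPM to 40.0 and 37.5 CPM (log2 fold change 9.22 ± 0.29 (SE), adjusted p = 5.09e-22), with means of 1.25 CPM at 7 d and 15.2 CPM at 21 d. TWIST2 had 3 counts untreated and 257 at 28 d, a ratio of 116 (95% counting interval 39.2 to 566). SNAI2 rose by 2.62 and SNAI1 fell by 1.28, and the vimentin gene VIM, with means of 3227 and 2777 CPM, did not pass (adjusted p = 0.0516). CDH1, E-cadherin, had too few counts to test, 23 untreated and 0 at 28 d.

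**Figure D3:**
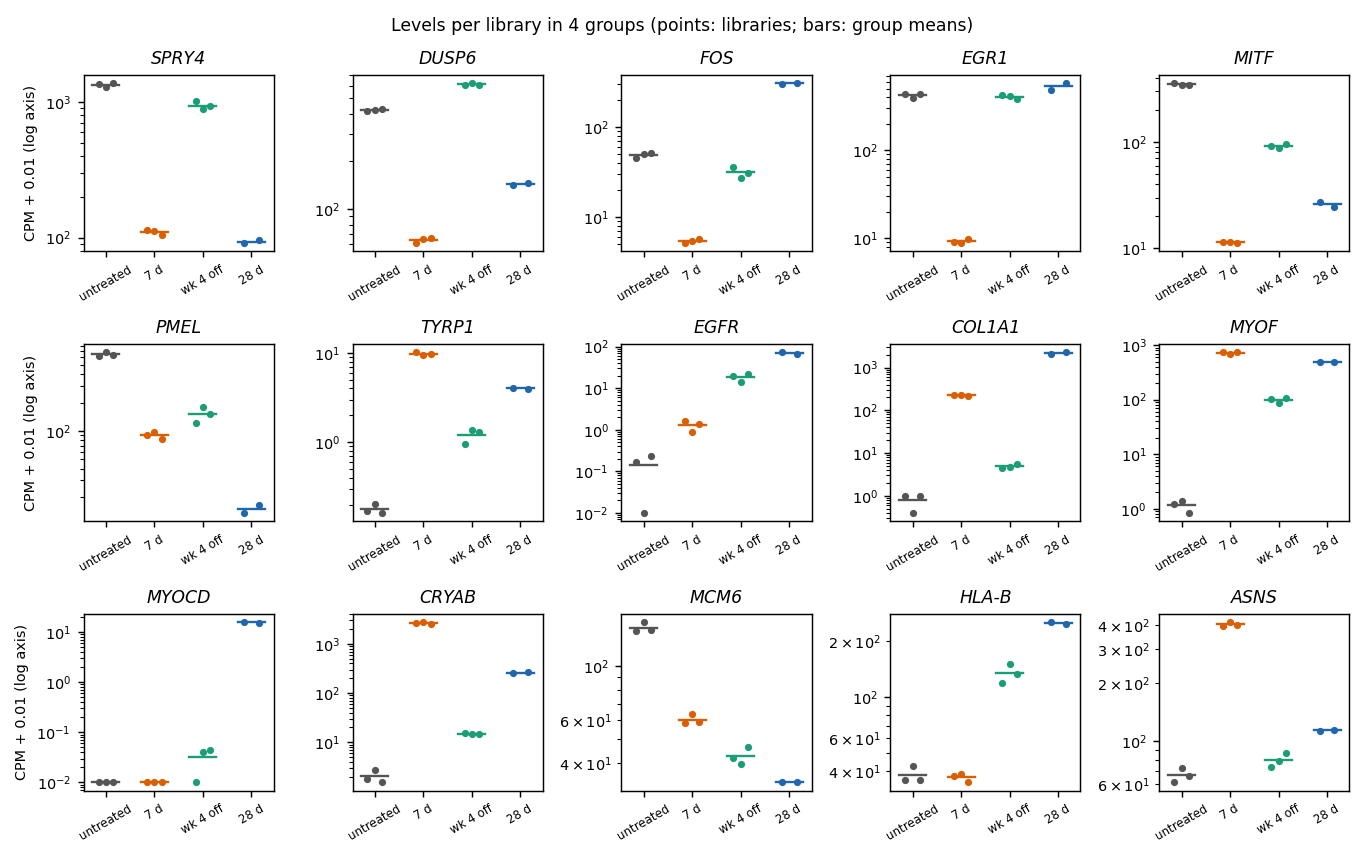
CPM + 0.01 on a log axis for 15 genes in the untreated, 7 d, week 4 off drug and 28 d groups; points are libraries and bars are group means. MYOCD is at 0 in all untreated and 7 d libraries and at 15.9 and 15.1 CPM at 28 d, and CRYAB is higher at 7 d than at 28 d.

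Of 15 tested collagens 13 rose and 1 fell (median 3.39). COL1A1 (ENSG00000108821, GRCh38 chr17:50183289-50201632), the main chain of type I collagen, was at 0.960, 0.389 and 0.984 CPM untreated and at 2058 and 2300 CPM at 28 d (log2 fold change 11.48 ± 0.22 (SE), adjusted p = 3.41e-27). It had 224 CPM after 7 d and 4.95 CPM off drug on day 28, so the high level was seen in libraries of cells on drug. COL5A1 went from 1.04, 0.843 and 1.02 CPM to 719 and 749.9 CPM (log2 fold change 9.57 ± 0.16 (SE), adjusted p = 2.71e-28), and COL3A1 and COL12A1 rose by 9.26 and 6.89. COL11A1, at 1.73 CPM untreated, fell to 0.350 CPM (adjusted p = 2.56e-06). Other matrix genes rose in 18 of 26 cases and fell in 5. BGN, the proteoglycan biglycan, went from 1.16, 1.17 and 0.909 CPM to 115 and 125 CPM (log2 fold change 6.79 ± 0.14 (SE), adjusted p = 5.98e-27), and LUM, lumican, from 0.48, 1.17 and 0.492 CPM to 50.5 and 52.0 CPM (log2 fold change 6.11 ± 0.28 (SE), adjusted p = 4.1e-18). LUM had a mean of 1.35 CPM at 7 d, 8.44 at 14 d and 25.1 at 21 d, a late riser, whereas THBS1, thrombospondin, had 8073 CPM at 7 d and 4750 CPM at 28 d. LOXL4, a lysyl oxidase, fell from 1935, 2100 and 1916 CPM to 47.2 and 47.1 CPM (log2 fold change -5.39 ± 0.12 (SE), adjusted p = 6.09e-26), while its relative LOXL2 rose by 2.44. SERPINE2, a protease inhibitor, fell from 5752, 6225 and 5916 CPM to 919 and 852 CPM (log2 fold change -2.75 ± 0.09 (SE), adjusted p = 1.73e-21). Integrins rose in 11 of 18 cases and fell in 5. ITGA8 had no count untreated and 1477 at 28 d, at least 666-fold higher. ITGA11, a collagen-binding chain, went from 0.640, 0.778 and 0.719 CPM to 321 and 333 CPM (log2 fold change 8.82 ± 0.16 (SE), adjusted p = 1.13e-27). ITGB3, the vitronectin receptor chain, fell from 654, 610.3 and 604 CPM to 94.8 and 82 CPM (log2 fold change -2.82 ± 0.12 (SE), adjusted p = 1.11e-18).

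Targets of the YAP and TEAD regulators rose in 16 of 18 cases and fell in 2 (median 1.98). MYOF, a membrane repair protein, went from 1.24, 1.39 and 0.833 CPM to 489 and 499 CPM (log2 fold change 8.72 ± 0.18 (SE), adjusted p = 1.85e-26). CYR61, a matricellular protein and standard YAP target, went from 36.8, 40.1 and 36.9 CPM to 1016 and 1004 CPM (log2 fold change 4.73 ± 0.09 (SE), adjusted p = 7.17e-28). AMOTL1, a binding partner of YAP, fell by 0.96. Contractile genes rose in 16 of 20 cases and fell in 1 (median 2.21). CNN1, smooth muscle calponin, had no count untreated and 6.28 and 6.67 CPM at 28 d, at least 184-fold higher. TPM1, a tropomyosin, went from 37.2, 41.2 and 38.2 CPM to 773 and 857 CPM (log2 fold change 4.39 ± 0.08 (SE), adjusted p = 6.37e-28), and TAGLN, transgelin, from 2.4, 1.91 and 1.59 CPM to 29.6 and 36.5 CPM (log2 fold change 4.07 ± 0.17 (SE), adjusted p = 5.53e-19). MYH10, a non-muscle myosin heavy chain, was the list's 1 gene that fell, from 461, 434 and 433 CPM to 136 and 137 CPM (log2 fold change -1.69 ± 0.17 (SE), adjusted p = 4.24e-10), and MYH11, the smooth muscle myosin, had means of 0.382 and 0.394 CPM (adjusted p = 0.941). MYOCD (ENSG00000141052, GRCh38 chr17:12665890-12768949) encodes myocardin, the partner of serum response factor that turns on smooth muscle genes. It had 0 counts in the 3 untreated libraries and 15.9 and 15.1 CPM at 28 d, at least 439.7-fold higher. Its mean was 0 at 7 d, 0.193 CPM at 14 d, 3.52 at 21 d and 0.0215 off drug on day 28.

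Serum response factor binds the CArG box, and the promoters of ACTG2 and MYLK, 2 contractile genes that rose, carry it close to the start. ACTG2, smooth muscle gamma actin, had 0.04, 0.324 and 0.265 CPM and then 0.770 and 0.954 CPM (log2 fold change 1.98 ± 0.61 (SE), adjusted p = 0.00719), and MYLK, myosin light chain kinase, 13.4, 13.2 and 13.3 CPM and then 82.4 and 80.9 CPM (log2 fold change 2.62 ± 0.11 (SE), adjusted p = 1.39e-18). The sequences are from RefSeq on GRCh38.p14, ACTG2 at chr2:73892758-73893057 on the plus strand and MYLK at chr3:123620499-123620798 on the minus strand, with CArG boxes in capitals.
ACTG2: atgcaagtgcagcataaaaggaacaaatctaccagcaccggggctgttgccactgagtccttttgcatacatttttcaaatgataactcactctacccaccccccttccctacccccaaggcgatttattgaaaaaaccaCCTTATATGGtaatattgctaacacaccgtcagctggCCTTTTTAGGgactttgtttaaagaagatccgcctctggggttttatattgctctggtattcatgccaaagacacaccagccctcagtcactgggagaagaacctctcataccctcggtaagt
MYLK: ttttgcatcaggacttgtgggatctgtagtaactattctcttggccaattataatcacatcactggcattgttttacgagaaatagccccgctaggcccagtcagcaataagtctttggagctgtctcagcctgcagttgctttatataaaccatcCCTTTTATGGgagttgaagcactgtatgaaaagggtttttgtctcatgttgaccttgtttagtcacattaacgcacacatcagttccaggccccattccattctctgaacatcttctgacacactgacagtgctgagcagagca
The boxes begin 110 and 73 bases before the start in ACTG2 and 94 bases before in MYLK. A CArG box stood in 4 of 16 matched contractile promoters and in 1.29% of all promoters, and the other 12 showed none in this window.

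Markers of other cell types were read beside these lists. Of 10 fibroblast markers 9 rose, with a median of 5.80, or 4.98 with MFAP5, which had 0 counts untreated, set at its lower bound. No median of the lists outside the markers moved against untreated when genes at 0 counts were set so. The summed level of the fibroblast markers was 56.1 to 58.1 CPM untreated and 2359 to 2604 CPM at 28 d. THY1, a defining fibroblast surface marker, had 4 counts untreated and 1 at 28 d. Of the 4 tested muscle markers 3 rose, the sum going from 15.2 to 18.3 CPM up to 37.2 to 39.1 CPM, and the muscle determination genes MYOD1, MYOG and MYF5 had 0 counts in both groups. Endothelial markers summed to 14.95 to 17.8 CPM untreated and 7.08 and 7.40 CPM at 28 d, leukocyte markers to 5.40 to 5.68 and 7.27 to 8.98 CPM, and epithelial markers to 18.4 to 20.4 and 3.65 to 3.70 CPM, with CD3E and EPCAM at 0. These 3 sums differ in direction from the lists' medians. Of 6 tested endothelial markers 3 rose and 2 fell (median log2 fold change 1.59), of 3 leukocyte markers 1 rose and 1 fell (median -0.20), and of 4 epithelial markers 2 rose and 1 fell (median 2.59, or 1.01 with the gene at 0 counts in 1 group set at its bound). Of the 7 melanocyte markers 6 fell, and their sum went from 2316 to 2437 CPM down to 349.9 and 369.8 CPM. The melanocyte markers include MITF, PMEL, MLANA and TYR described above, and the fibroblast markers include COL1A1, LUM and PDGFRB, so neither list is separate from those results. In bulk RNA fewer cells of a type and less RNA per cell cannot be told apart, and the part of other cell types in these results was not tested.

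Cell division genes fell. All 20 G1/S genes fell (median -1.54), against 26.0% of all tested genes. CDC25A, the phosphatase that starts S phase, went from 24.2, 24.3 and 19.8 CPM to 3.23 and 3.91 CPM (log2 fold change -2.67 ± 0.13 (SE), adjusted p = 3.55e-17). GINS2, a part of the replicative helicase, went from 30.6, 35.3 and 32.4 CPM to 7.27 and 6.64 CPM (log2 fold change -2.23 ± 0.15 (SE), adjusted p = 1.02e-13). MCM6, a subunit of the same helicase, went from 139, 152 and 140 CPM to 33.5 and 33.3 CPM. Of 20 G2/M genes 19 fell (median -1.23). MKI67, the Ki-67 antigen of cycling cells, had 295, 217 and 250.3 CPM and then 77.8 and 81.0 CPM (log2 fold change -1.68 ± 0.24 (SE), adjusted p = 6.26e-07). CCNA2, cyclin A2, and CENPE, a kinetochore motor, fell by 2.20 and 2.03. KIF20A did not pass (adjusted p = 0.222). CDK inhibitors and RB family genes rose in 5 of 9 cases and fell in 3. CDKN1A, p21, rose from 296, 322 and 329 CPM to 613 and 612 CPM (log2 fold change 0.96 ± 0.08 (SE), adjusted p = 5.7e-12). CDKN2A had 2 counts untreated and 58 at 28 d, a ratio of 39.2 (95% counting interval 10.4 to 332). CDKN1C, p57, fell from 14.6, 19.1 and 17.8 CPM to 1.66 and 2.01 CPM (log2 fold change -3.23 ± 0.21 (SE), adjusted p = 2.43e-14). All 20 G1/S genes were also lower at 28 d than at 7 d, where 19.9% of tested genes were (median -0.71), and lower than off drug on day 28, where 26.1% were (median -0.69). The 3 comparisons share the 28 d libraries and are not independent.

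In the BCL2 family, which sets the threshold for cell death, 8 of 15 genes fell and 3 rose. HRK, a BH3-only death gene, went from 3.32, 3.53 and 3.10 CPM to 0.0616 and 0.0986 CPM (log2 fold change -5.31 ± 0.52 (SE), adjusted p = 3.14e-10). BCL2A1, a survival gene driven by MITF in melanoma, went from 111, 128 and 119 CPM to 5.45 and 5.10 CPM (log2 fold change -4.50 ± 0.17 (SE), adjusted p = 8.11e-20). BMF, another BH3-only gene, rose from 14.9, 13.6 and 14.2 CPM to 41.1 and 46.3 CPM (log2 fold change 1.62 ± 0.09 (SE), adjusted p = 1.2e-15). Targets of p53 were divided, 6 of 14 up and 5 down. GDF15, a stress cytokine, fell from 581, 752 and 692 CPM to 99.0 and 92.8 CPM (log2 fold change -2.81 ± 0.16 (SE), adjusted p = 5.83e-16), and TP53INP1 rose by 1.54.

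All 15 tested genes of MHC class I presentation were higher at 28 d than untreated (median 1.92), where 29.3% of all genes were. HLA-B had 35.7, 42.4 and 35.9 CPM and then 256 and 248 CPM (log2 fold change 2.73 ± 0.15 (SE), adjusted p = 8.27e-16). B2M, the light chain of class I molecules, had 589.7, 653 and 618 CPM and then 1582 and 1636 CPM (log2 fold change 1.38 ± 0.12 (SE), adjusted p = 4.49e-11). PSMB9, a subunit of the immunoproteasome that cuts peptides for class I, went from 2.72, 2.59 and 3.10 CPM to 50.1 and 46.8 CPM (log2 fold change 4.11 ± 0.18 (SE), adjusted p = 1.08e-18), and HLA-F from 0.960, 1.65 and 1.32 CPM to 13.8 and 12.1 CPM (log2 fold change 3.28 ± 0.24 (SE), adjusted p = 4e-13). Counts of HLA genes can be split between near-identical copies, so single HLA values are less certain than the list. Of 7 tested class II genes 6 rose and 1 fell. HLA-DRA went from 5.48, 6.42 and 5.72 CPM to 43.1 and 35.6 CPM (log2 fold change 2.74 ± 0.18 (SE), adjusted p = 2.62e-14), and HLA-DPB1 rose by 2.80. HLA-DRB1 and HLA-DRB5, with 1 and 0 counts untreated and 19 and 26 at 28 d, were not tested. HLA-DMB, which helps load class II peptides, fell from 15.5, 16.6 and 13.5 CPM to 2.93 and 1.78 CPM (log2 fold change -2.68 ± 0.21 (SE), adjusted p = 2.12e-12).

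Interferon-stimulated genes rose in 18 of 22 cases and fell in 2 (median 1.25). BST2, the virus-tethering protein tetherin, went from 0.32, 0.681 and 0.265 CPM to 17 and 15.8 CPM (log2 fold change 5.22 ± 0.31 (SE), adjusted p = 3.5e-15). OAS2, a sensor of double-stranded RNA, went from 0.680, 0.551 and 0.984 CPM to 16.7 and 18.6 CPM (log2 fold change 4.58 ± 0.22 (SE), adjusted p = 2.69e-17). IFIT3 fell by 0.90. Most of the rise came after the first week: BST2 had a mean of 0.59 CPM at 7 d, 1.76 at 14 d and 7.97 at 21 d, and HLA-B 36.9, 89.8 and 153 CPM. Against 7 d, 15 of 15 class I genes, 7 of 7 class II genes and 16 of 22 interferon-stimulated genes were higher at 28 d, where 21.1% of all tested genes were, and none of the 3 lists had a member that was lower. Class II log2 fold changes were 2.84 or more against 7 d and at most 2.80 against untreated (medians 4.02 and 2.10). The fitted levels of all 7 were thus below untreated at 7 d, a difference that was not tested.

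The factors that interferon activates bind the ISRE. The promoters of BST2, HLA-F and TAP1 are shown because all 3 genes rose and carry it near the start. TAP1, which pumps peptides to class I molecules, had 16.4, 18.3 and 15.6 CPM and then 74.9 and 76.4 CPM (log2 fold change 2.17 ± 0.14 (SE), adjusted p = 5.22e-14). The sequences are from RefSeq on GRCh38.p14, BST2 at chr19:17405581-17405880 on the minus strand, HLA-F at chr6:29723184-29723483 on the plus strand and TAP1 at chr6:32853655-32853954 on the minus strand. Capitals mark GAAANNGAAA on either strand, with overlapping matches joined.
BST2: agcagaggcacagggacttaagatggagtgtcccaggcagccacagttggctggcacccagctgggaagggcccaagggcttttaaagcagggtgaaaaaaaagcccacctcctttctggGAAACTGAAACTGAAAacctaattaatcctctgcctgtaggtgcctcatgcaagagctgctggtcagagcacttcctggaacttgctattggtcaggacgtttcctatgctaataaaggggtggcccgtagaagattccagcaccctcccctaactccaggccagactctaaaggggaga
HLA-F: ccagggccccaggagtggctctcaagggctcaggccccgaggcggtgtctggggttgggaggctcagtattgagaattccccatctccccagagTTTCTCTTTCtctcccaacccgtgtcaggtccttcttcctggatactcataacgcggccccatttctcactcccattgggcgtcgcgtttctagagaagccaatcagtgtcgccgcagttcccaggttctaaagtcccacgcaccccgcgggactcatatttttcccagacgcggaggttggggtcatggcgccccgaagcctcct
TAP1: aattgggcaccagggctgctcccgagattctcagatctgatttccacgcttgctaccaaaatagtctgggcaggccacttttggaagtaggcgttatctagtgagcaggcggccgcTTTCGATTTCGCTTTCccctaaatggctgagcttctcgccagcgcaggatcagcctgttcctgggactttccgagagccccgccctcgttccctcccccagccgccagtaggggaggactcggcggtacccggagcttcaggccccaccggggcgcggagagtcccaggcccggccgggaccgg
Matches begin 130 and 124 bases before the start in BST2, 156 bases before in HLA-F and 134 and 128 bases before in TAP1, the last 2 genes in reverse. The motif stood in 11 of 16 matched promoters of interferon-stimulated genes (68.8%) and 7 of 12 of class I presentation (58.3%), against 3.65% of all promoters. IFIT3, which fell, and MX1, which did not pass, are among the 11.

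Secreted inflammatory factors rose in 10 of 14 cases and fell in 2 (median 2.56). Against 7 d, 5 were higher and 7 lower (median -1.05, or -0.25 with genes at 0 counts in 1 group set at their lower bound). IL6 had 3 counts untreated and 692 at 28 d, a ratio of 312 (95% counting interval 106 to 1517). CCL2, which attracts monocytes, went from 0.12, 0.519 and 0.189 CPM to 64.4 and 58.0 CPM (log2 fold change 7.70 ± 0.28 (SE), adjusted p = 2.84e-20). CX3CL1, the membrane-bound chemokine fractalkine, fell from 14.3, 14.98 and 12.9 CPM to 1.201 and 0.789 CPM (log2 fold change -3.81 ± 0.21 (SE), adjusted p = 7.15e-16). Interleukin 1 beta, IL1B, had 0.301 CPM untreated, 1.97 CPM at 28 d and 68.7 CPM off drug on day 28.

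Of 21 glycolysis genes 14 fell and 3 rose, and SLC2A1, the glucose transporter GLUT1, was among those that rose (71.5, 74.2 and 72.3 CPM, then 227 and 224 CPM, log2 fold change 1.63). Of 28 nuclear-encoded respiratory chain subunits 21 fell and none rose (median -0.49). That count dropped to 13 without 28 d replicate 2. Of 13 mitochondrially encoded genes 5 fell and 1 rose, with a median of -0.31. That is 46.2% called, against 55.3% of all tested genes, so this list does not stand apart. The number that fell was 2 without untreated replicate 3 and 3 without untreated replicate 1. It was also smaller with either 28 d library left out. Regulators of mitochondrial biogenesis fell in 10 of 11 cases. PPARGC1A, the coactivator PGC-1 alpha that MITF drives in melanoma, went from 66.7, 58.3 and 64.9 CPM to 7.11 and 8.88 CPM (log2 fold change -2.98 ± 0.20 (SE), adjusted p = 5.41e-14), above its mean of 1.76 CPM at 7 d (adjusted p = 7.75e-09). Cholesterol synthesis genes fell in 18 of 20 cases (median -1.09). STARD4, a sterol carrier, went from 94.4, 84.7 and 90.1 CPM to 22.8 and 22.7 CPM. LSS, which closes the sterol rings, rose by 0.43. Ribosome biogenesis genes fell in 18 of 20 cases (median -0.66), among them POLR1B, a subunit of RNA polymerase I, by 1.39 and NCL, nucleolin, by 1.15. Lysosome genes were divided, 11 of 21 up and 6 down, CTSD, cathepsin D, going from 328, 407 and 378 CPM to 1396 and 1408 CPM (log2 fold change 1.92 ± 0.13 (SE), adjusted p = 5.96e-14).

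Detoxification genes rose in 14 of 20 cases and fell in 3. AKR1B10, an aldo-keto reductase, went from 0.04, 0.130 and 0.341 CPM to 31.8 and 33.5 CPM (log2 fold change 7.55 ± 0.24 (SE), adjusted p = 5.61e-22). HMOX1, heme oxygenase, went from 5.96, 6.52 and 5.26 CPM to 48.6 and 49.4 CPM (log2 fold change 3.05 ± 0.14 (SE), adjusted p = 4.97e-18), below its mean of 171 CPM at 7 d (adjusted p = 1.19e-12). ALDH1A3, a retinal dehydrogenase, fell from 3461, 3570 and 3517 CPM to 207 and 207 CPM (log2 fold change -4.09 ± 0.09 (SE), adjusted p = 1.47e-25), and ALDH1A1 fell by 4.58. Small heat shock genes and their partners rose in 5 of 11 cases and fell in 4. CRYAB, alpha B crystallin, had 1.8, 2.79 and 1.51 CPM and then 251 and 265 CPM (log2 fold change 6.96 ± 0.17 (SE), adjusted p = 9.7e-25), but 2634, 2836 and 2549 CPM after 7 d, so it was lower at 28 d than at 7 d (log2 fold change -3.37 ± 0.15 (SE), adjusted p = 8.91e-18). HSPB3 had 0 counts untreated and 608 at 28 d, at least 274-fold higher. Targets of ATF4, the amino acid stress factor, rose in 8 of 19 cases and fell in 5 against untreated, yet all 19 were lower than after 7 d, where 19.9% of all tested genes were (median -1.02). PSPH, the last enzyme of serine synthesis, was the nearest to the threshold (adjusted p = 0.0471). ASNS, asparagine synthetase, had means of 66.5 CPM untreated, 403 at 7 d and 114 at 28 d. ATF3, the largest riser of the list, went from 1.96, 2.24 and 2.42 CPM to 22.5 and 24.6 CPM.

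The 10 largest rises and 10 largest falls over all genes were taken from genes with a mean of at least 5 CPM in the higher group and libraries that did not overlap. CMKLR1, a receptor for the chemokine-like protein chemerin, had 0 counts untreated and 22.4 and 29.3 CPM at 28 d, at least 730.2-fold higher, and its mean off drug on day 28 was 31.4 CPM (adjusted p = 0.119 for the difference). MUC5AC, a secreted mucin, was at 0 untreated and at 20.4 and 29.6 CPM at 28 d, at least 704-fold higher, with a mean of 0.0638 CPM off drug. PSG4, TMEM200A, RANBP3L and ADAMTS14 were also at 0 untreated and at least 541, 369, 363 and 299-fold higher. COLEC12, a scavenger receptor, had 2 counts untreated and 8576 at 28 d, a ratio of 5802 (95% counting interval 1606 to 47910). ITGA8, MYOCD and COL1A1, given above, make up the rest of the 10 rises. Among the falls, LAD1, an anchoring filament protein, had 18.2, 20.5 and 19.7 CPM untreated and 0 counts at 28 d, at least 396-fold lower. NRG3, a neuregulin, and HTN1, a salivary histatin, were also at 0 at 28 d, at least 176 and 158-fold lower. PLN, phospholamban, which restrains a calcium pump, had 4059 counts untreated and 3 at 28 d. MUC7, NHEG1, RLBP1 and SHISA3 kept 1, 1, 3 and 3 counts at 28 d from 1455, 908, 1492 and 1420 counts. GJB1, the gap junction protein connexin 32, went from 357, 401 and 385 CPM to 1.29 and 1.02 CPM (log2 fold change -8.35 ± 0.17 (SE), adjusted p = 7.02e-27), and SLC5A4, a glucose sensor of the sodium symporter family, from 59.0, 58.6 and 61.2 CPM to 0.0924 and 0.263 CPM (log2 fold change -8.38 ± 0.30 (SE), adjusted p = 1.4e-20). The intervals and the floor of 3 counts cover counting error alone.

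A wider set showed when such genes appeared. There were 353 genes with a mean under 0.1 CPM untreated and at least 1 CPM at 28 d, of which 297 were protein coding, 25 lincRNA and 18 antisense. The strand setting of the counts is not given, so reads of antisense genes cannot be told from those of genes they overlap. Of these 353, 8 had a mean of at least 1 CPM at 20 h, 105 at 7 d, 178 at 14 d and 272 at 21 d. In cells off drug on day 28, 119 of them did. The reverse set, at least 1 CPM untreated and under 0.1 CPM at 28 d, held 76 genes, of which 50 were under 0.1 CPM at 7 d, 62 at 14 d and 60 at 21 d. Off drug on day 28, 11 of the 76 were under 0.1 CPM and 27 were at 1 CPM or more. These sets were chosen by the 28 d and untreated values, so their values at the other times are a description.

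Between 7 and 28 d of drug, 4334 genes (21.1%) rose and 4076 (19.9%) fell, 41.0% in all, with 2260 (11.0%) and 827 (4.04%) past 2-fold. MYOCD and RANBP3L had 0 counts at 7 d and 15.5 and 12.8 CPM at 28 d. CD177, a neutrophil surface protein, was at 0, 0.0289 and 0 CPM at 7 d, 1 count over the 3 libraries, and at 60.6 and 70.4 CPM at 28 d. IDO1, the tryptophan-degrading enzyme that interferon induces, was at 0 counts in the 7 d libraries, at a mean of 3.37 CPM at 21 d and at 6.99 and 8.02 CPM at 28 d. SEPP1, selenoprotein P, was at 0.0771, 0.0289 and 0.0658 CPM at 7 d and 49.6 and 59.2 CPM at 28 d (log2 fold change 9.84 ± 0.30 (SE), adjusted p = 1.69e-21). Of the 5 largest falls since 7 d, 4 were in genes whose level at 7 d stood above both end points. RASL11B had 0.136, 7.63 and 0.146 CPM untreated, at 7 d and at 28 d, PDGFB 0.0501, 7.39 and 0.364 CPM, and AKR1C1, a reductase with near-identical relatives, 0.154, 23.2 and 2.17 CPM. NKX6-1, a homeobox gene, had 1.38, 8.84 and 0.658 CPM, whereas NAP1L5 had 10.2, 7.59 and 0.413 CPM. BIRC7, the melanoma inhibitor of apoptosis, was one of the genes below untreated that had risen since 7 d, with means of 82.4 CPM untreated, 4.87 at 7 d and 26.2 at 28 d (adjusted p = 2.58e-12 against 7 d). C6orf141 and CSGALNACT1 had the same order, with 20.2, 0.715 and 7.62 CPM and 39.9, 2.24 and 11.4 CPM.

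Against cells off drug on the same day, 5144 genes (25.1%) were higher at 28 d of continuous drug and 5345 (26.1%) lower, 51.2% in all, with 2438 (11.9%) and 2275 (11.1%) past 2-fold. Time in culture is alike here, while the drug history is not. Feedback inhibitors were lower in 8 of 9 cases (median -1.51), and collagens higher in 10 of 15 and contractile genes in 16 of 20 (medians 1.95 and 2.05). Interferon-stimulated genes were higher in 19 of 22 cases and class I genes in 14 of 15. Receptor tyrosine kinases were divided, 10 of 22 higher and 9 lower. FGFR1 had 442, 441 and 422 CPM off drug and 26.2 and 24.5 CPM on it, and EGFR 19.1, 14.2 and 22.2 CPM off and 73.7 and 68.1 CPM on. The genes highest over the off-drug cells were LBP, ANGPTL7, MS4A4A, SEPP1 and MYOCD. LBP, which binds bacterial lipopolysaccharide, had 0 counts off drug and 6.13 and 13.2 CPM on drug, 2 libraries that differ from each other. Those furthest below the off-drug cells were LCE1F, OBP2A, LCN1, IL36RN and PAEP, with means of 7.63, 5.30, 39.1, 10.3 and 91.3 CPM off drug. Their means at 28 d were 0, 0, 0.0483, 0.0164 and 0.207 CPM, and untreated they were 0.0360, 0.0234, 0.0940, 0.0133 and 0.247 CPM, so the off-drug cells held the high level.

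Where genes lie on the chromosomes also moved with the comparison. Among genes with a mean of at least 5 CPM, the 306 genes in the first 140 Mb of chromosome 4 (positions from GENCODE 29) had a median log2 fold change of -0.92 (interquartile range -1.37 to -0.38) between 28 d and untreated, and 235 of them fell. The 88 genes in the rest of the chromosome had a median of -0.14. On chromosome 2, the 369 genes from 120 Mb onward had a median of -0.53 and 234 fell, while the 391 before that point had a median of -0.04. The 9978 genes of the other chromosomes had a median of -0.04 and 34.3% fell, against 76.8% and 63.4% in the 2 stretches. The stretches were picked after the values were seen, so these shares are a description. Windows of 20 Mb elsewhere were also low: the 28 genes at 20 to 40 Mb of chromosome X had a median of -0.54 and 18 fell (64.3%), and the first 20 Mb of chromosomes 10 and 9 had a median of -0.39 each, with 28 of 49 and 21 of 38 genes falling. For chromosome 4, library medians of the log2 ratio to the untreated mean were -0.22 to -0.18 at 7 d, -0.59 to -0.54 at 14 d, -0.83 to -0.76 at 21 d and -0.90 and -0.88 at 28 d, and off drug on day 28 they were still -0.82 to -0.80. Against 7 d the 28 d median of that stretch was -0.74, and against the off-drug cells of day 28 it was -0.14. Of the genes described above, SPRY1, KDR, LEF1, CCNA2, CENPE, PPARGC1A, HTN1, MUC7, SHISA3, NAP1L5 and NKX6-1 lie in the chromosome 4 stretch and MCM6, NCL and SERPINE2 in that of chromosome 2, and all of these fell. PDGFRA and FGFR3 on chromosome 4 and COL3A1, COL5A2, TWIST2 and EPHA4 on chromosome 2 lie in the same stretches and rose. Outside both stretches 5793 of 19257 tested genes were higher and 4715 lower, and inside them 217 of 1237 were higher and 604 lower. The part of a shared regional shift in the fall of single genes there was not tested.

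**Figure D4:**
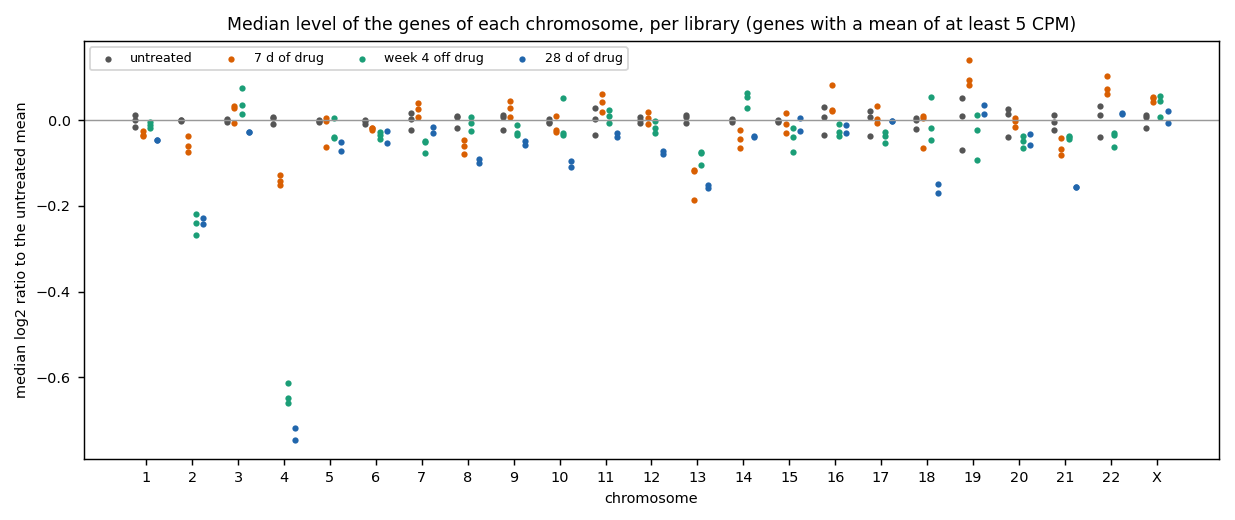
Median log2 ratio to the untreated mean, log2(CPM + 0.5), of the genes of each chromosome with a mean of at least 5 CPM, one point per library in 4 groups. Chromosomes 4 and 2 lie lowest in the 28 d libraries and in those off drug on day 28, while the 7 d libraries lie between these and the untreated ones on chromosome 4.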

How the data were processed

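Poly(A) RNA was sequenced from 29 libraries in 10 groups. The authors deposited 1 table of raw read counts per gene, for which the submitters' processing notes name HISAT2 2.0.3, HTSeq 0.6.1, Trimmomatic 0.32, SAMtools 0.1.18 and build GRCh38. The annotation and the strand setting are not given in the sources used here, so overlapping and antisense genes cannot be told apart. GENCODE 29 positions matched 57055 of 60675 genes. Counts were TMM-scaled and tested with edgeR 4.0.16 (quasi-likelihood, filterByExpr, R 4.3.3) in 1 fit over all groups, with Benjamini-Hochberg adjustment over 20494 genes, and SEs were taken from the fold change and its F value. The test was also run on simulated counts with the same spread for every gene and few changed genes. That setting is simpler than these data, so no conclusion is drawn from it. Alternatives were DESeq2 1.42.0, RLE factors, no filter, the compared groups alone, a replicate block and leaving out libraries.

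The lists and the genes named in them were chosen with earlier results of these data known. Named genes are BRAF, the feedback inhibitors, the 2 largest changes with each list's main direction and the 1 largest against it (mean of at least 1 CPM in the higher group), and the largest changes by comparison (at least 5 CPM, groups that do not overlap, no clones, antisense genes or pseudogenes). Other genes were named after their values were seen. The intermittent week 3 columns are called off drug in the table and on drug in the labels, which were followed.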

Additional observations from a re-analysis of the deposited data

How the results depend on the processing

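The main comparison rests on 2 libraries under drug, and the counts over all tested genes stayed within 1.5 times their main values under every alternative run. Leaving out 1 library at a time gave 5259 to 5573 genes higher and 4326 to 5171 lower than untreated (3359 to 3446 and 2025 to 2259 past 2-fold). Against 7 d this gave 3321 to 3839 higher and 3032 to 4019 lower (1955 to 2110 and 742 to 861 past 2-fold). Against the off-drug cells it gave 4187 to 4476 higher and 4307 to 5411 lower (2175 to 2292 and 2031 to 2314 past 2-fold). Where 1 library was left at 28 d, its spread was taken from the other groups. DESeq2 called 6206 higher and 5115 lower than untreated, RLE size factors 6219 and 5085, no count filter 6218 and 5093, and a fit of the compared groups alone 6155 and 5589. Leaving out the 2 libraries that stood furthest from their replicates, chosen after seeing the data and neither in a compared group, gave 5887 and 6056, so that the larger side changed from 6010 higher against 5319 lower. Of 1544 values of named genes against untreated under alternatives, 1519 kept their side of the threshold, 22 lost it and 3, all of BRAF, gained it; none changed sign. Against 7 d 41 lost it and 22 gained it, and against the off-drug cells 31 and 18. Values of UBTF, MAP2K2, MT-ND3, NKX6-1 and NDUFV2 are among the 22, and the cause was not tested. Counts within the gene lists moved by over 1.5 times in 57 values against untreated (823 did not), 45 against 7 d (835) and 36 against the off-drug cells (844). Of the 57, 11 came without 28 d replicate 2, among them respiratory chain subunits that fell (21 to 13), and 6 without replicate 1. In the RAS to ERK cascade, DESeq2 called 6 genes higher and 1 lower, against 3 and 2.

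Whether replicate numbers pair the libraries cannot be told, since the deviations of the 2 libraries at 28 d from their mean mirror each other. With 2 pairs per comparison, deviations of same-numbered libraries correlated between -0.12 and 0.055. A fit with the replicate number as a block called 5948 genes higher and 5216 lower than untreated, 4241 and 3982 against 7 d, and 5051 and 5244 against the off-drug cells. Depth limits genes of few counts, whose folds are given as bounds or with counting intervals.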

Other observations

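Gene families outside the lists were read after their values were seen, so their counts are a description. All 5 tested guanylate-binding protein genes, which interferon gamma induces and which coat intracellular pathogens, rose at 28 d, where 29.3% of all tested genes did. GBP1 had 2.76, 2.17 and 2.31 CPM in the untreated libraries and 83.3 and 84.1 CPM at 28 d, with means of 12.5 CPM at 7 d and 5.44 CPM off drug on day 28. All 4 tested apolipoprotein L genes rose as well. APOL1, whose protein lyses trypanosomes, had 0.28, 0.421 and 0.757 CPM untreated and 54.3 and 57.4 CPM at 28 d, with means of 8.02 CPM at 7 d and 4.34 CPM off drug. In GBP1 and APOL1 the 28 d libraries lay above all libraries of the other 3 groups. All 6 tested insulin-like growth factor binding protein genes rose. IGFBP7 went from 15.1, 23.7 and 17.9 CPM to 497 and 486 CPM, and IGFBP3 from 190, 195 and 195 CPM to 1114 and 1119 CPM. Off drug on day 28 IGFBP7 had a mean of 40.5 CPM, whereas IGFBP3 had 1042 CPM.

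Replication-dependent histone genes, whose main transcripts lack a poly(A) tail, rose in 22 of 32 cases and fell in 1, although the libraries were made from poly(A) RNA and the G1/S genes fell. HIST1H2AC went from 3.36, 3.47 and 3.60 CPM to 114.1 and 113 CPM (log2 fold change 5.03 ± 0.13 (SE), adjusted p = 6.27e-24 by edgeR's quasi-likelihood test). HIST1H2BH was the gene that fell, from 8.20, 11.6 and 9.16 CPM to 2.19 and 1.74 CPM. Pregnancy-specific glycoprotein genes, which are near-identical copies so that counts can be split between them, rose in 5 of 6 cases. PSG4, PSG5 and PSG9 had 0 counts untreated and means of 19.1, 10.52 and 8.01 CPM at 28 d. Keratin genes rose in 15 of 31 cases and fell in 1 against untreated, and in the comparison with cells off drug on day 28 they were higher in 6 cases and lower in 17. Of all tested genes, 29.3% were higher and 26.0% lower than untreated, and 25.1% and 26.1% against the off-drug cells.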
